A study of Sus scrofa with 24 samples.

Results

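LENG8 and 9 regulators of pre-mRNA splicing (CLK1, CLK4, SRSF5, SRSF7, DDX5, LUC7L, LUC7L3, SON and PNISR) were followed through the hippocampi of 24 piglets. The 10 genes were picked by name out of 38882 listed genes, and LENG8 was picked because its level was higher in small than in normally grown piglets fed the hydrolyzed fat formula. All 10 genes passed the filter of at least 1 CPM (read count scaled to a common library total) in at least 3 libraries, as did 16326 genes in all. The comparison of the 2 sizes on that formula is therefore a description for every gene here. No p is given for it, and calls counted in it are descriptions too.

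The piglets were PIC Camborough by PIC 359 crosses, euthanized on postnatal day 14. Piglets small for gestational age (SGA) were each paired with an appropriate for gestational age (AGA) littermate of the same sex. Each pair received either the control formula (CON), whose fat was triglyceride oil, or the hydrolyzed fat formula (HF), in which part of that oil was replaced by free fatty acids and monoacylglycerol palmitate and which also held lecithin and cholesterol. This gave 6 piglets in each of AGA CON, SGA CON, AGA HF and SGA HF, from 6 litters on each formula, with 3 litters of each formula in each of the 2 cohorts. Both littermates of a pair had the same formula, so size varied within litters and diet between litters, and smallness at birth was natural, with no induced model. Only the comparisons of littermates, of litter means and with litter as a block used the pairs. The other fits had no litter term, so their diet values count both littermates as separate piglets.

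Splicing removes introns from pre-mRNA in the nucleus, and neurons use alternative splicing widely. SR proteins, such as SRSF5 and SRSF7, bind exons and recruit the spliceosome, and the CLK kinases phosphorylate SR proteins and release them from nuclear speckles, where SON is a scaffold. LUC7L and LUC7L3 are relatives of a U1 snRNP protein that helps choose the 5′ splice site, DDX5 is an RNA helicase, and PNISR is a speckle protein rich in arginine and serine. LENG8 has a SAC3 domain, the domain type of proteins that link mRNA processing to nuclear export. Transcripts of several of these families are known to retain introns and poison exons.

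Total counts over listed genes ran from 6017336 to 9284355 per library, so 3 counts correspond to 0.320 to 0.494 CPM, and all 10 genes lay well above that floor. The tissue carried its neuronal markers at high level. CAMK2A, a kinase of excitatory neurons, averaged 3481 CPM and NEUROD2, a transcription factor of forebrain neurons, 480 CPM, while ZBTB20 stood at or near 0 under its gene model. In 1 library pituitary markers stood apart. The hormone GH1 reached 306 CPM in its highest library, and the summed pituitary markers were 362 CPM there (SGA HF replicate 4), against 23.1 to 36.8 CPM in AGA CON. In bulk tissue fewer cells of a type and less RNA per cell cannot be told apart.

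Gene models differed in how much of each gene they covered. In the Sscrofa10.2 assembly, LENG8 (gene 106504183) lies on the minus strand of chromosome 6 from 53412023 to 53422877, with 15 exon intervals and 3894 exonic bases. SON (gene 396703) had the longest model, 9583 exonic bases on chromosome 13 from 206972806 to 207004139. DDX5 (gene 102158045) was listed only as a fragment of 241 exonic bases on an unplaced scaffold (bases 1 to 320), and its counts ran from 49 to 166 per library. PNISR (gene 100134950) was also on an unplaced scaffold, with 2008 exonic bases from 113604 to 118833. Exons of LENG8, CLK4, SRSF5 and PNISR overlapped an exon of another gene on the other strand, and the counting used the strand of the reads.

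LENG8 was the most abundant of the 10 genes per exonic length. Its mean level was 261 ± 36.0 CPM per kilobase (SD, n = 24), followed by the DDX5 fragment with 55.7 ± 16.5, SRSF7 with 41.6 ± 2.56 and LUC7L3 with 34.2 ± 3.81. PNISR (22.3 ± 3.42), LUC7L (21.2 ± 1.44) and CLK1 (21.2 ± 3.24) had levels per kilobase that were within their spread of each other. SON (13.2 ± 1.10), SRSF5 (10.9 ± 1.15) and CLK4 (7.88 ± 1.25) were the lowest. The DDX5 fragment and SRSF7 were also closer than the SD of the fragment. Relative to its own mean, SRSF7 varied least across piglets (coefficient of variation 6.15%) and DDX5 most (29.6%), with 13.8% for LENG8.

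LENG8 was higher in SGA than in AGA piglets on the HF formula, by 1.29-fold in the fit. In AGA HF piglets the level ran from 639 CPM (replicate 2) over a median of 859 to 1105 CPM, with a mean of 875 ± 156 CPM (SD, n = 6). In SGA HF piglets it ran from 1028 over a median of 1080 to 1229 CPM. The AGA HF group held the lowest values of the study, yet its highest piglet stood inside the SGA HF range, so the groups overlapped. Within HF litters the SGA piglet was higher in 6 of 6 litters, by a log2 difference of 0.154 to 0.697 with a mean of 0.35 ± 0.215 (SD, n = 6). Of all genes tested, 2.52% were higher in the SGA piglet of all 6 HF litters. The fitted log2 fold change was 0.36 (standard error 0.069). A gene was called (a DEG) at an FDR below 0.4, adjusted over 7 contrasts. In this contrast 0.288% of genes were called, and since LENG8 was chosen here its own place among them is no result.

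On the CON formula the SGA piglets were 1.10-fold higher, which was not called. AGA CON piglets had 892 to 1079 CPM (median 1018) and SGA CON piglets 964 to 1302 CPM (median 1073). SGA CON replicate 6 was the highest LENG8 value of the 24 libraries, and the other 5 SGA CON piglets stood in or near the AGA CON range. The fitted log2 fold change was 0.14 (standard error 0.069), with an FDR of 0.729 in edgeR's quasi-likelihood test, a contrast in which 0.129% of genes were called. The SGA piglet was higher in 5 of 6 CON litters, with a mean log2 difference of 0.12 ± 0.111 (SD, n = 6), and the exact two-sided sign-flip test gave p = 0.0625, where the smallest possible value is 0.03125.

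The other LENG8 contrasts share libraries with the one that chose the gene, so their values are listed without a test. The main effect of size was 0.25 (standard error 0.050) on the log2 scale, and the interaction of size and diet was 0.22 (standard error 0.094). HF against CON was -0.24 (standard error 0.070) in AGA piglets and -0.02 (standard error 0.068) in SGA piglets. In the plot of LENG8 by piglet, AGA HF has the lowest group mean, 875 CPM, and a range that spans the whole AGA CON range, while the other means were 1001 and 1092 CPM for the AGA and SGA piglets on CON and 1104 CPM for the SGA piglets on HF. Across cohorts the means of litters differed by 0.09 on the log2 scale (exact permutation test of 6 against 6 litter means, two-sided p = 0.342).

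**Figure D1:**
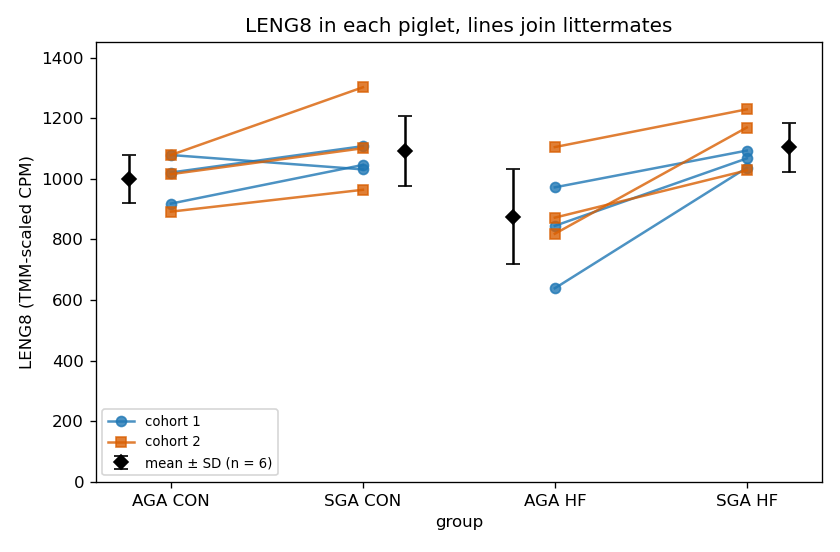
LENG8 level (TMM-scaled CPM, y axis from 0) of each piglet in the 4 groups, with lines joining littermates, colour for cohort and black diamonds for the group mean ± SD (n = 6). The line falls in 1 of the 12 litters, a CON litter, and the lowest point is AGA HF replicate 2 at 639 CPM.

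AGA HF replicate 2 and its litter carried part of the LENG8 difference. Its littermate stood at 1036 CPM, the largest gap of the 12 litters at a log2 difference of 0.697. Without that litter the mean HF littermate difference was 0.28, and the fitted fold change of SGA against AGA on HF was 0.31. With the single library left out, the fitted value was 0.28 on HF and 0.20 for the main effect of size. HF against CON in AGA piglets then moved from -0.24 to -0.12. With sex alone in place of the surrogate variables, LENG8 stood at 0.34 on HF and 0.23 for size, and it had the same values with sex and cohort.

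None of the other 9 members was a DEG in any of the 7 contrasts under edgeR, DESeq2 or limma voom. At an unadjusted p below 0.05 in edgeR, DDX5 and SON were reached for size and on CON, and LUC7L3 and PNISR for diet. CLK1 was reached for HF against CON in AGA piglets. Many other genes were under this p. By p among the 16326 genes tested, DDX5 ranked 1100 for size and 883 on CON, and SON 227 and 71. For diet LUC7L3 ranked 866 and PNISR 499, and CLK1 ranked 827 in its contrast. The share of all genes under this p was not counted, so no excess of members is read from it. The shares that follow are for the FDR threshold. The shares of all genes called were 0.478% for size, 0.159% for diet, 0.049% for the interaction, 0.0674% for HF against CON in AGA and 0.0919% for HF against CON in SGA piglets. In the fit with sex and the surrogate variables, 6 of the other 9 members had a positive and 3 a negative fold change for size. Of all genes tested, 49.2% were positive there. The median over the 10 genes was 0.04 for size and -0.07 for diet on the log2 scale, beside 0.00 for each over all genes tested. The signs for size depended on the fit. With litter as a block in place of sex and the surrogate variables, CLK1 (-0.12), SRSF7 (-0.01) and LUC7L3 (-0.01) turned negative.

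Among the kinases, CLK1 had 36.0 to 48.6 CPM (median 40.4) in AGA CON and 25.3 to 40.9 CPM (median 36.7) in SGA CON. Its groups overlapped, and the SGA piglet was lower in 4 of 6 CON litters (mean log2 difference -0.23 ± 0.246, SD, n = 6, exact two-sided sign-flip p = 0.125). The kinase CLK4 showed a like CON difference of -0.19 ± 0.254 (exact p = 0.188). AGA CON replicate 2 had the highest AGA CON level of both kinases, and its litter 4 gave -0.43 for CLK1 and -0.62 for CLK4. The largest CLK1 fall was in litter 12, at -0.53. The fitted CON values were smaller, at -0.08 (standard error 0.100, FDR 0.924 in edgeR's quasi-likelihood test) for CLK1 and -0.10 (standard error 0.123, FDR 0.922) for CLK4. With litter as a block in place of sex and the surrogate variables, CLK1 was at -0.22 (standard error 0.093, FDR 0.559). For CLK1, HF against CON in AGA piglets was -0.22 (standard error 0.101, FDR 0.714). None of these passed the threshold.

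SRSF5 and SRSF7, the SR proteins, were close to level between the sizes. SRSF5 had 32.9 to 45.9 CPM (median 35.1) in AGA CON and 32.4 to 37.7 CPM (median 35.6) in SGA CON. In the HF groups SRSF5 had 34.4 to 47.2 CPM (median 39.3) in AGA and 35.7 to 42.2 CPM (median 37.3) in SGA piglets. Both HF groups had higher medians than both CON groups, with overlapping ranges. The litter means of SRSF5 were 0.12 higher on HF on the log2 scale (exact permutation test of 6 against 6 litter means, two-sided p = 0.0152). That was the single one of the other 9 members under p of 0.05, where 4.1% of all genes were, and its Benjamini-Hochberg value over all genes was 1. The fitted main effect of diet for SRSF5 was 0.12 (standard error 0.062, FDR 0.747). SRSF7 stayed between 43.6 and 53.4 CPM in all 24 libraries.

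SON, the speckle scaffold, had the smallest unadjusted p among the members outside LENG8. It had 114 to 145 CPM (median 130) in AGA CON and 109 to 135 CPM (median 118) in SGA CON. Its groups overlapped, and the SGA piglet was lower in 4 of 6 CON litters and in 5 of 6 HF litters. The CON fold change was -0.17 (standard error 0.050, FDR 0.482) and the main effect of size was -0.12 (standard error 0.036, FDR 0.485), both in edgeR's quasi-likelihood test and both short of the threshold. The littermate mean on CON was -0.12 ± 0.176 (SD, n = 6, exact two-sided sign-flip p = 0.188). SON passed the threshold for size without litter 4, 5 or 8, where 325, 1259 and 333 genes were called in all, against 78 with every litter. Without litter 5 it also passed on CON, at -0.18, and on HF, at -0.20, where 462 and 1108 genes were called, against 21 and 47. The HF value is a description, as for every gene here.

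PNISR, LUC7L and LUC7L3 lay near their overall means in every group. LUC7L had the tightest CON groups, 104 to 113 CPM (median 109) in AGA and 107 to 114 CPM (median 113) in SGA piglets, and a wider AGA HF group of 84.8 to 124 CPM (median 104.8). LUC7L3 had 106 to 160 CPM (median 141) in AGA HF and 113 to 157 CPM (median 130) in SGA HF. PNISR had 27.5 to 52.5 CPM (median 46.5) in AGA HF and 34.7 to 53.3 CPM (median 43.8) in SGA HF. In each of these genes AGA HF replicate 2 was the lowest of the 24 libraries. The diet effect of PNISR was -0.17 (standard error 0.066, FDR 0.645) and that of LUC7L3 was -0.12 (standard error 0.052, FDR 0.701). Between litter means the HF minus CON differences were smaller, at -0.05 for PNISR (exact permutation test of 6 against 6, two-sided p = 0.667) and -0.01 for LUC7L3 (p = 0.846). DDX5, read from its fragment, had a size effect of 0.18 (standard error 0.076, FDR 0.671), and its littermate differences on CON spread from -0.73 to 1.12.

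**Figure D2:**
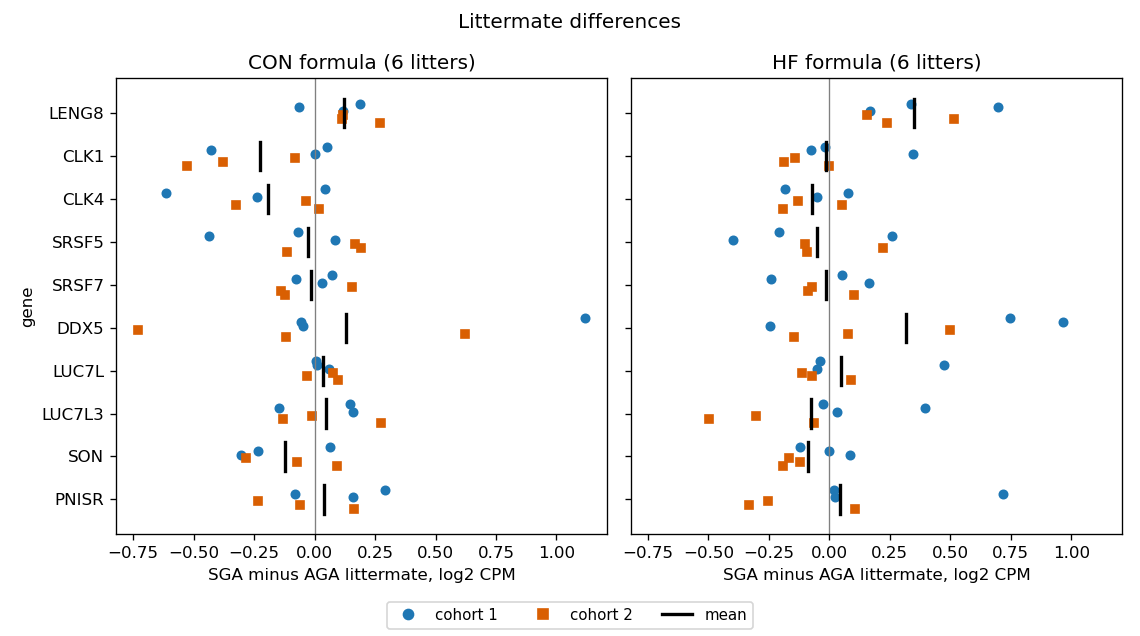
SGA minus AGA littermate difference in log2 CPM (x axis) for each of the 10 genes (y axis), 6 litters on CON at left and 6 on HF at right, with colour and shape for cohort and a bar for the mean. On HF every LENG8 point lies to the right of 0, from 0.154 to 0.697, while the points of each other gene fall on both sides of 0 on both formulas.

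Under the exact test over the 6 CON litters, 0 of the 10 genes had p below 0.05, where 4.66% of all genes did. Between cohorts, 0 of the 10 genes differed in their litter means at p below 0.05, where 12.5% of all genes did.

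Whether the 10 genes moved together from piglet to piglet was examined with each gene's deviations from its group means. Over the 45 pairs of members the median Pearson r was 0.31, with 38 pairs above 0 and 11 pairs (24.4%) at 0.5 or more. Over all pairs of tested genes the median was 0.00 and 3.4% reached 0.5. The highest pairs were CLK1 with CLK4 (r = 0.76) and LUC7L3 with PNISR (r = 0.76), and the lowest was SRSF7 with DDX5 (r = -0.19). Members share libraries, so their pairs are not independent, and the values are descriptions.

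The joint movement was larger in cohort 1 than in cohort 2. In the 12 piglets of the cohort 1 litters the median r over the 45 pairs was 0.57, and in the 12 of cohort 2 it was 0.08. The difference between cohorts was not tested. CLK1 with CLK4 kept an r of 0.89 and 0.64 in the cohorts, and LUC7L3 with PNISR 0.90 and 0.53. LENG8 with PNISR had 0.93 and 0.16, and CLK1 with SON had 0.56 and -0.87.

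**Figure D3:**
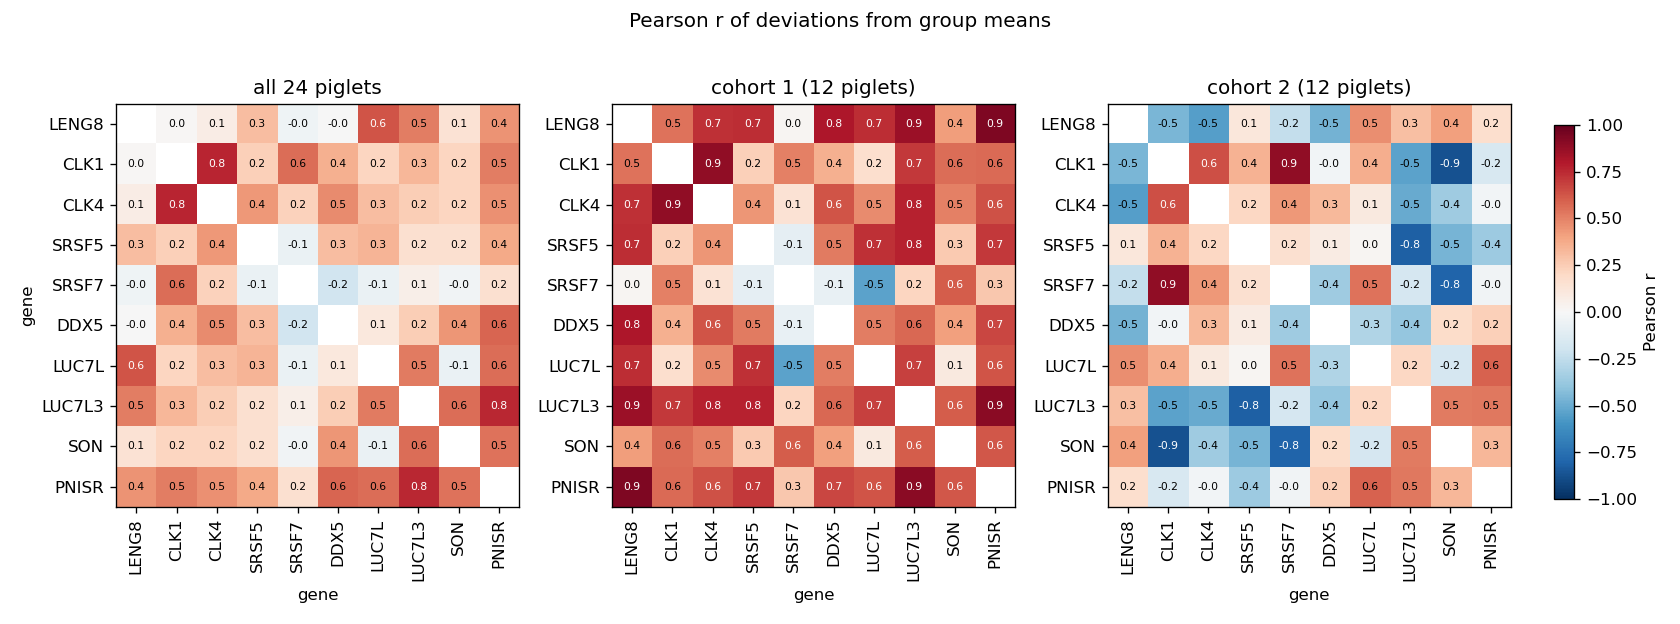
Pearson r between the deviations from group means of each pair of the 10 genes, over all 24 piglets (left) and over the 12 piglets of each cohort (middle, right), from -1 (blue) to 1 (red). The cohort 1 panel is mostly red with a median of 0.57, and the cohort 2 panel mixes both signs with a median of 0.08.

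The highest r of LENG8 with a member were those with LUC7L and LUC7L3. For LUC7L the Pearson r was 0.63 (within-group permutation p = 0.0297) and Spearman's rho 0.20 (p = 0.394), for LUC7L3 they were 0.51 (p = 0.0353) and 0.32 (p = 0.151), and for PNISR 0.45 (p = 0.0965) and 0.25 (p = 0.271). Leaving out the 2 libraries farthest from the LENG8 median, both AGA HF (replicates 2 and 5), brought r down to 0.30, 0.36 and 0.07. Without litter 3, which holds replicate 2, r was 0.44, 0.29 and 0.11, and without litter 9, which holds replicate 5, it was 0.69, 0.65 and 0.53. The r with PNISR thus rested on litter 3, and those with LUC7L and LUC7L3 were lower without it. In the limma slope on LENG8, fitted over all 16325 other genes, 0 of the 9 members passed an adjusted p of 0.05, with LUC7L lowest at 0.288, and 0.0306% of genes passed. By unadjusted p, LUC7L, LUC7L3 and PNISR were under 0.05, and the share of all genes under it was not counted. Over all other genes, r with LENG8 lay below -0.46 in the lowest 5% and above 0.45 in the highest 5%.

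Of the members, LUC7L ranked 120 of 16325 genes by r with LENG8, LUC7L3 ranked 491 and PNISR 846. SRSF5 stood at r = 0.31 and SON at 0.14, while CLK4, CLK1, DDX5 and SRSF7 were between -0.04 and 0.07. Within cohorts LENG8 with CLK1 was at 0.54 and -0.46, with CLK4 at 0.73 and -0.55, and with DDX5 at 0.81 and -0.47.

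**Figure D4:**
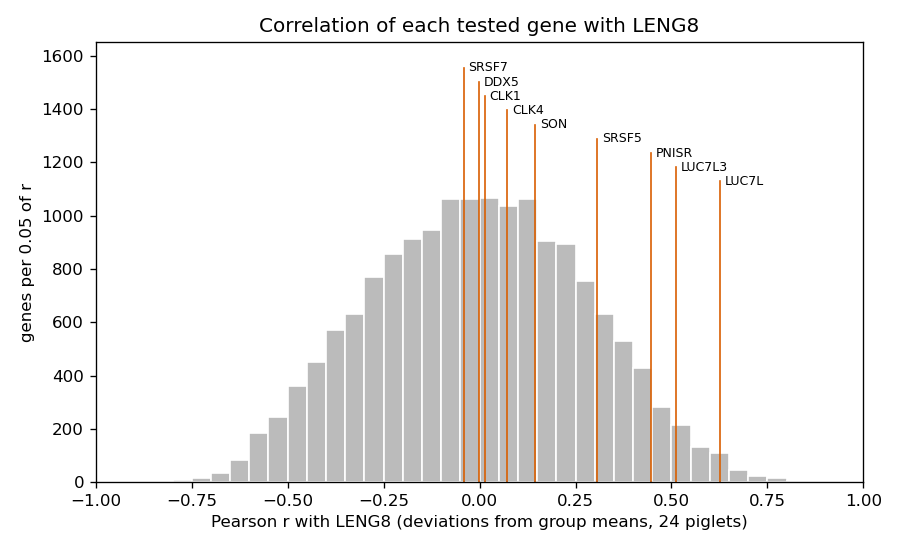
Number of tested genes (y axis, per bin of 0.05) by their Pearson r with LENG8 over 24 piglets (x axis), with orange lines for the 9 other members. LUC7L at 0.63, LUC7L3 at 0.51 and PNISR at 0.45 lie in the right tail, and SRSF7, DDX5, CLK1 and CLK4 near the centre.

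The 10 named genes most like LENG8 by this r were MBD6 (0.85), SNRNP70 (0.83), MSI1 (0.82), ZSWIM8 (0.82), USP54 (0.80), NCKAP5L (0.79), MTSS1L (0.79), TNS2 (0.78), KCNMB1 (0.77) and GNG8 (0.77), over 24 libraries. SNRNP70, the U1 snRNP 70K protein, is the one of them with a place in the spliceosome, and MSI1 is an RNA-binding protein of neural progenitors. MBD6, a methyl-CpG-binding domain protein, ran from 53.8 to 108 CPM, with group means of 83.6 CPM (AGA) and 81.6 CPM (SGA) on CON and of 75.7 CPM (AGA) and 85.6 CPM (SGA) on HF. Like LENG8, all of the 10 genes but TNS2 had their lowest group mean in AGA HF (55.9 CPM for MSI1, against 69.8 to 71.5 in the other groups). MBD6 had an r with LENG8 of 0.86 in cohort 1 and 0.88 in cohort 2. The 10 genes were taken from the top of a ranking of 16325 genes by r. In the limma slope on LENG8, the adjusted p was 0.0397 for MBD6 and for MSI1. It was 0.0972 for SNRNP70, and ran from 0.0612 (KCNMB1) to 0.156 (ZSWIM8) over the named genes other than MBD6 and MSI1. Over all genes 5 passed the threshold of that slope. None passed without litter 3 or in cohort 2 alone, and leaving out single litters gave 0 to 8.

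Of 116 tested genes on 8 further lists of the splicing machinery, 1 was called, beside 0.478% of all genes for size and 0.129% on CON. HNRNPH1, a heterogeneous nuclear ribonucleoprotein that binds G-rich RNA, was up-regulated in SGA piglets, by 0.27 on the log2 scale for size (standard error 0.055, FDR 0.224) and by 0.32 on CON (standard error 0.075, FDR 0.328). It had 211 to 281 CPM (median 255) in AGA CON and 270 to 342 CPM (median 308) in SGA CON, with ranges that overlapped. HNRNPH1 has close relatives in the genome, and reads that fit several of them equally are not counted. The lists without a called gene were the 11 other SR proteins, 8 other SR protein kinases, 21 other RS-domain and speckle proteins, 27 spliceosomal snRNP proteins, 19 neuronal splicing regulators, 5 SAC3-domain and TREX-2 genes and 1 nuclear noncoding RNA (MEG3). Among these lists the highest r with LENG8 were 0.83 for SNRNP70 and 0.72 for SRRM2, the large speckle protein. The nearest SAC3-domain relative, MCM3AP, was at 0.18.

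A library measure moved with several of the members, for most of them mainly in cohort 1. The slope of log2 CPM on log2 exon length, over the more highly expressed genes, gives how strongly long gene models were read in a library relative to short ones. It ran from -0.0774 in AGA HF replicate 2 to 0.0509 in AGA HF replicate 3. DDX5 had an r of 0.92 with this slope, PNISR 0.77, CLK4 0.59, CLK1 0.51 and LENG8 0.17, with a median of 0.45 over the 10 genes and 0.01 over all genes tested. SRSF7 was lowest at -0.04. These r did not follow the members' own model lengths. DDX5 has the shortest model of the 10 genes, 241 exonic bases, and SON, with the longest, 9583, had an r of 0.42. LENG8 was at 0.97 in cohort 1 and -0.52 in cohort 2, LUC7L3 at 0.83 and -0.33, and CLK1 at 0.56 and 0.06. Every member but DDX5 had a lower r in cohort 2 than in cohort 1, and DDX5 had 0.88 and 0.97. The mean slope was -0.0140 in AGA HF and 0.0157 in SGA HF, and -0.0040 in AGA CON and 0.0023 in SGA CON. With the slope removed as well as the group means, the median r over the 45 member pairs was 0.07, with LENG8 and LUC7L at 0.61. The part of the slope in the LENG8 difference between sizes was not tested. RNA quality, which the paper gives only as an average over samples, was not tested against the slope or the members.

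**Figure D5:**
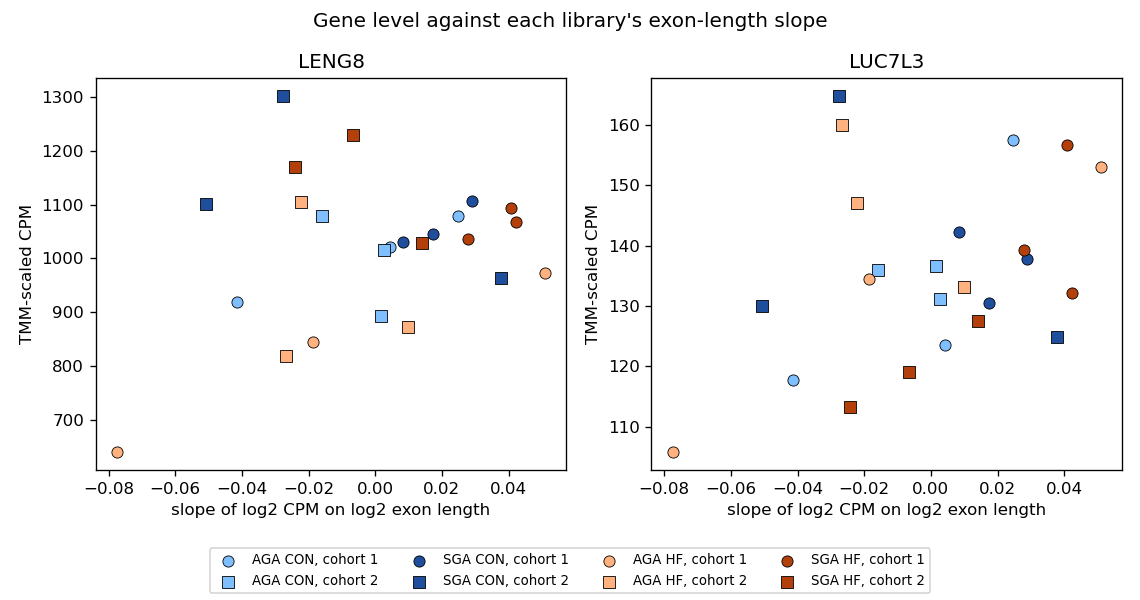
Level of LENG8 (left) and LUC7L3 (right) in TMM-scaled CPM (y axes, not from 0) against the slope of log2 CPM on log2 exon length of each library (x axis), with colour for group and shape for cohort. AGA HF replicate 2 is the point at the lower left in both panels, at a slope of -0.0774, and LENG8 rises with the slope among the circles of cohort 1.

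Of 14 library measures, the summed astrocyte markers had the highest r with LENG8. Pearson r was 0.67 (permutation p = 0.00422, adjusted 0.0316 over the 14), Spearman's rho was 0.64 (p = 0.00324), r without the 2 farthest libraries was 0.51, and r was 0.68 in each cohort. All 5 astrocyte markers were expressed, with GFAP far the highest at a mean of 8236 CPM and GJA1 next at 202 CPM. The sum is thus mostly GFAP, and r with LENG8 is not given for the single markers. The summed astrocyte markers had medians of 9163 CPM in AGA CON (7789 to 11557), 8069 in SGA CON (7231 to 8715), 7786 in AGA HF (6979 to 11215) and 8432 in SGA HF (7968 to 9101). The 3 oligodendrocyte progenitor markers, all expressed, had an r of 0.62 with LENG8 (permutation p = 0.00452, adjusted 0.0316), a Spearman's rho of 0.53 (p = 0.0142) and r of 0.55 and 0.59 in the cohorts. Without the 2 farthest libraries it was 0.46. Their summed medians were 159 CPM in AGA CON (144 to 203), 165 in SGA CON (144 to 173), 150 in AGA HF (133 to 196) and 167 in SGA HF (139 to 185). The 4 neuron markers tested had an r of -0.45 with LENG8 (permutation p = 0.0597, adjusted 0.199, Spearman's rho -0.40, p = 0.067). The 3 hippocampal neuron markers tested had -0.53 (permutation p = 0.0413, adjusted 0.193, Spearman's rho -0.31, p = 0.172). That sum is mostly CAMK2A, at a mean of 3481 CPM.

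Among the cell type markers tested, only CAMK2A was called for size. The median log2 fold change for size was 0.035 over the 4 neuron markers, with SNAP25 at -0.008. Over the 5 astrocyte markers it was -0.003, a value that spans opposite signs on the 2 formulas. On CON their median was -0.08 with 0 of 5 positive. On HF it was 0.07 with 4 of 5 positive, given as a description. CAMK2A was up-regulated in SGA piglets by 0.13 for size (standard error 0.030, FDR 0.308). On HF its log2 fold change was 0.19 (standard error 0.042), given as a description. The 3 hippocampal neuron markers had positive fold changes in both comparisons. The summed level of these markers had medians of 4073 CPM in AGA CON (3619 to 4279), 4287 in SGA CON (3522 to 4369), 3706 in AGA HF (3120 to 4353) and 4223 in SGA HF (3773 to 4320). The 5 oligodendrocyte markers, all expressed and none called, had negative fold changes for size in 5 of 5 (median -0.19), and on HF in all but MBP (median -0.32). Their summed medians were 20191 CPM in AGA CON (17198 to 22470), 15369 in SGA CON (11787 to 18390), 21103 in AGA HF (13103 to 24198) and 16787 in SGA HF (11066 to 21661). The summed oligodendrocyte markers had an r of 0.25 with LENG8 (permutation p = 0.337, adjusted 0.524, Spearman's rho 0.11, p = 0.646). The part of cell makeup in the LENG8 differences was not tested.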

How the data were processed

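The authors selected polyadenylated RNA, sequenced 24 stranded single-end libraries on 1 lane, trimmed reads with Trimmomatic 0.33, aligned them to Sscrofa10.2 with STAR 2.5.2a and deposited raw counts per Entrez gene from featureCounts (Subread 1.5.0, reverse strand, exons), without normalization (versions also in the submitters' processing notes). The authors give the RNA quality number as an average over samples and ascribe its value to pre-spliced RNA. An entry without an identifier held 0.613 to 1.62% of reads and was left out. No library pair of a group agreed within sampling noise. Symbols came from an Sscrofa11.1 table (23036 of 38882 genes matched), and chromosome numbers from the majority of its genes on each sequence.

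A gene was kept when 3 or more libraries reached 1 CPM, and the 16326 kept genes were fitted in edgeR 4.0.16 (TMM scaling, legacy quasi-likelihood) on the 4 groups, sex and 5 surrogate variables (sva 3.50.0, R 4.3.3). The FDR was adjusted over 7 contrasts together, with 0.4, the cut-off of the study's heat map, as threshold. CPM are TMM-scaled, and log2 CPM carry a prior count of 2. Littermate and litter-mean tests were exact and two-sided, correlations used 100000 within-group permutations, and the slope on LENG8 used limma 3.58.1. Littermates share a pair label and number. Over genes, deviations from group means correlated at a median of 0.13 between littermates (above 0.1 in 9 of 12 pairs) and -0.06 between piglets of different litters. The edgeR fit, the litter block and the limma slope were tested on simulated data, and the exact tests on made values.

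The members and gene lists were chosen with earlier results of these data known. The text names the 10 members, the 10 genes with a symbol nearest to LENG8, called genes of the lists, and defining markers. SRRM2 and MCM3AP were named after their values were seen. Alternatives covered DESeq2 1.42.0, limma voom, RLE scaling, other filters and covariates, litter as a block, single cohorts and each litter left out. The replicate spread is between piglets, and floors cover counting error only.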

Additional observations from a re-analysis of the deposited data

Results flagged for a closer look

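Among the 40 combinations of a member and a group, 3 held a piglet that stood far from the other 5, and chance gives about 1 such case in 20 groups. CLK1 reached 54.0 CPM in SGA HF replicate 3, where the next piglet of the group had 35.8 CPM and the lowest 31.8 CPM. CLK4 stood at 25.8 CPM in the same library, against 20.03 CPM in the next and 17.2 CPM in the lowest. SRSF5 stood at 45.9 CPM in AGA CON replicate 2, with 35.9 CPM in the next and 32.9 CPM in the lowest piglet. That library also had the highest share of reads on the entry without an identifier, 1.62%. Of all libraries it had the lowest summed neuron markers, 2314 CPM, and the highest summed astrocyte markers, 11557 CPM.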

How the results depend on the processing

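LENG8 was chosen on HF, and its values for size hold the same libraries, so its place in the counts below was set by that choice and no stability is read from it. With litter as a replicate block in place of sex and the surrogate variables, 1 member (LENG8) was under the threshold for size and on HF, as in the fit without the block. Its log2 fold changes with the block were 0.24 and 0.35, and 0.12 on CON, and no other member's call differed. Over all genes 420 were called for size, 205 on CON, 145 on HF and 45 for the interaction with the block, where the FDR was taken over 4 contrasts. These were 78, 21, 47 and 8 with sex and the surrogate variables and 13, 1, 4 and 0 with sex alone, both over 7 contrasts.

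The count of 1 member for size and on HF became 0 with sex alone, with sex and cohort (106 genes called for size and 23 on HF), and in each cohort alone (0 genes in all). For size it became 0 without AGA HF replicate 2, a library chosen after seeing the data (73 genes), and 3 (LENG8, DDX5 and SON) with the FDR taken per contrast (1200 genes). HF against CON in AGA gave 1 (LENG8) under DESeq2 (58 genes, against 11). Leaving out each litter gave 0 to 2 members for size, where 14 (without litter 9) to 1259 (without litter 5) genes were called, and 0 to 2 on HF, where 3 to 1108 were. It gave 0 to 1 on CON (7 to 462 genes), 0 to 1 for HF against CON in AGA (6 to 739 genes), 1 to 2 for diet in litter means (LUC7L joined without litter 7) and 0 to 2 for cohort. LENG8 ranged over 0.20 to 0.28 for size and 0.31 to 0.40 on HF.

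The median pairwise r was 0.57 in cohort 1 alone. Of 1860 comparisons of a member's fold change with an alternative, 224 changed sign with no call in either fit. With 5 litters the sign-flip test cannot go below 0.0625, so it was not run with a CON litter left out. Depth limits DDX5 most, at 49 to 166 counts per library.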
